A study of Homo sapiens with 6 samples.

Results

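The 48 genes described here encode SR proteins, TRA2 proteins, hnRNPs and other RNA-binding proteins that choose splice sites. They were given as a list of symbols, with no threshold on a measured value, out of 35580 genes with a joined transcript. Of the 48 genes, 47 passed the filter on low counts and were among 15204 genes tested, and 44 had a mean of at least 5 CPM (counts scaled to a common library total). The cells were Rh30, an alveolar rhabdomyosarcoma line that carries the PAX3-FOXO1 fusion. In 3 libraries, titled siDDX5, the RNA helicase DDX5 had been knocked down, and 3 control libraries were titled CTR. Both groups are the same cell line, described as biological replicates. The siRNA sequence, its dose, the time of harvest and the kind of control are not given in the sources used here.

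SR proteins carry an arginine- and serine-rich domain and mostly promote the use of nearby exons, and TRA2 proteins act in a similar way. hnRNPs coat nascent transcripts and often repress exons. PTB, MBNL, CELF, RBFOX, QKI and ESRP proteins shape tissue-specific splicing, with MBNL, CELF, RBFOX and QKI proteins prominent in muscle. Many of these genes limit their own output by including a "poison" exon with an early stop codon, or by splicing or keeping an intron, so that part of their RNA is degraded by nonsense-mediated decay (NMD). For this reason both the level of each gene and the share of its RNA on coding, NMD and retained-intron transcripts were compared.

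The sequences below are alternative exons whose inclusion is described further on. Those of SRSF6 and the 36-base exon of MBNL1 are shown because their inclusion differed between groups without overlap, and the others for comparison with them. The first 4 are poison exons, each printed from its first base to the stop codon, in capitals, that it brings into frame in the named NMD transcript. They lie on GRCh38 at chr20:43459153-43459304 (plus strand, ENST00000483871.6), chr2:38749319-38749346 (minus strand, ENST00000425778.5), chr6:36599821-36599854 (plus strand, ENST00000477442.6) and chr3:185931772-185931852 (minus strand, ENST00000456380.5).
SRSF6: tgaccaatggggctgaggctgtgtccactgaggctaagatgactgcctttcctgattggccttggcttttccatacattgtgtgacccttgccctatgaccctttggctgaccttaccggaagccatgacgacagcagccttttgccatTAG
SRSF7: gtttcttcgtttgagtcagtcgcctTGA
SRSF3: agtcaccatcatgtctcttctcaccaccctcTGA
TRA2B: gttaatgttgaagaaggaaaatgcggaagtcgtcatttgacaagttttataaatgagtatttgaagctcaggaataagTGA

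The MBNL genes share short alternative coding exons, of which the 36-base and 54-base exons are shown. Capitals mark bases that differ from MBNL1. In MBNL2 31 of the 36 positions were the same as in MBNL1, and in MBNL3 29. The 54-base exon of MBNL2 had 45 positions the same. The 36-base exons lie at chr3:152455542-152455577 (plus), chr13:97365136-97365171 (plus) and chrX:132384663-132384698 (minus), and the 54-base exons at chr3:152446704-152446757 (plus) and chr13:97356796-97356849 (plus).
MBNL1, 36 bases: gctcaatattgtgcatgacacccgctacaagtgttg
MBNL2, 36 bases: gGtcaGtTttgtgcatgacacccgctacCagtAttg
MBNL3, 36 bases: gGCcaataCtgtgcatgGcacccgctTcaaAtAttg
MBNL1, 54 bases: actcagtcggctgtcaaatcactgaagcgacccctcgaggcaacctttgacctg
MBNL2, 54 bases: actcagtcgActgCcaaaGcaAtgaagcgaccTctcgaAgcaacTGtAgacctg

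The libraries held 18202402 to 26156858 estimated counts, and all siDDX5 libraries were shallower than the control libraries. A count of 3, taken as the floor, equalled 0.116 to 0.166 CPM. The targeted gene checked the labels: DDX5 was at 1356, 1438 and 1141 CPM in control replicates 1, 2 and 3 and at 551, 506 and 397 CPM after knockdown (log2 fold change -1.44, SE 0.15, edgeR adjusted p 0.0115). That call was lost without control replicate 1 (adjusted p 0.091), without siDDX5 replicate 1 (0.0582) and without siDDX5 replicate 2 (0.0587). DDX17, the closest paralog of DDX5, was 0.26 higher on the log2 scale (SE 0.11, edgeR adjusted p 0.409). The muscle markers MYOD1 (110 to 163 TPM) and DES (401 to 589 TPM) were present in all libraries. Among markers of other cells, KRT19 and HBB were listed at 0. PECAM1 (3.97 to 6.88 TPM), PTPRC (0.714 to 3.43 TPM) and CDH1 (0.477 to 1.21 TPM) were low but above 0 in every library. The highest of the remaining ones was VWF, with at most 0.593 TPM.

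Levels differed widely among the regulators. In TPM, a scale that corrects for transcript length, the highest were all hnRNPs. HNRNPA2B1, which binds exonic and intronic silencers, had 2071, 2132 and 1965 TPM in the control and 2122, 1795 and 1831 TPM in the siDDX5 libraries. HNRNPA1 followed with 1755 to 2067 TPM over the 6 libraries, so the levels of these neighbours overlapped. HNRNPC had 1095 to 1496 TPM, HNRNPH1 935 to 1409 TPM and HNRNPK 759 to 862 TPM. HNRNPC and HNRNPH1 overlapped each other, and HNRNPK lay below both in all 6 libraries.

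At the other end, the epithelial splicing regulator ESRP1 had 1 count or fewer in every library and was not tested. SRSF12 had 0.622 to 3.05 TPM, SRSF8 1.78 to 4.11 TPM and ESRP2 1.58 to 4.08 TPM, and these 3 overlapped. MBNL3 had 3.86 to 12.1 TPM. Its paralogs were higher, with mean levels of 34.9 TPM for MBNL2 and 69.4 TPM for MBNL1.

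**Figure D1:**
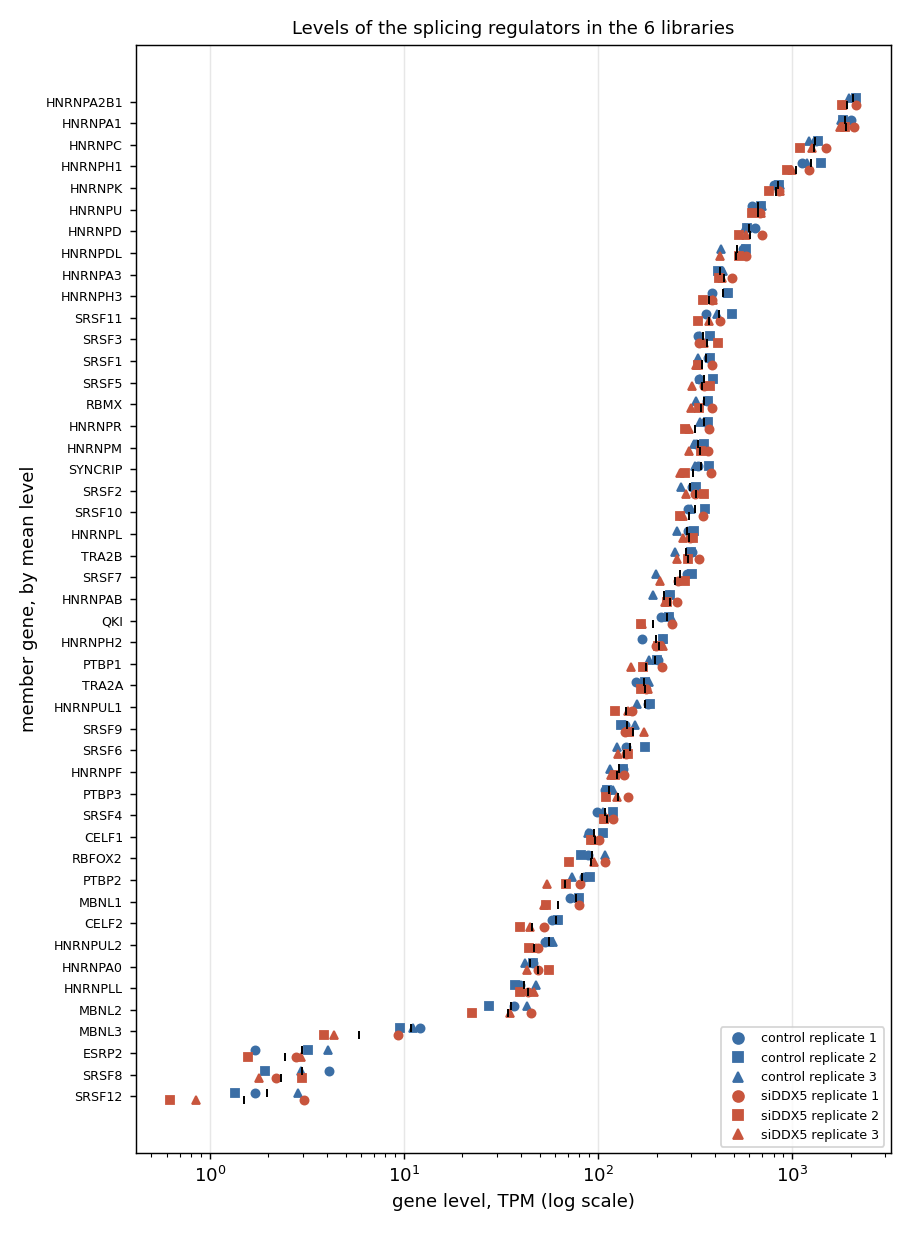
Level of each regulator in TPM (x axis, log scale) in every library, ordered by mean level. Points are libraries and short black lines are group means. HNRNPA2B1 and HNRNPA1 lie at the top, and ESRP1, near 0, is not drawn.

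No regulator passed the gene-level test. Of 47 tested, 0 passed at 0.05 after adjustment (edgeR, quasi-likelihood test), where 0.171% of all genes passed, and 4 had an unadjusted p under 0.05. DESeq2 also called 0, against 3.03% of all genes, with 5 at an unadjusted p under 0.05. Shares of all genes, classes or transcripts at an unadjusted p under 0.05 are not given here. Counts at that threshold, here and below, therefore do not show an excess among the regulators. The log2 fold change was above 0 in 28 genes, below 0 in 18 and 0.00 in SRSF7, with a median of 0.04 beside -0.002 over all genes. The siDDX5 libraries lay above all control libraries in 7 regulators and below them in 5, and groups did not overlap in 18% of all genes.

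With the replicate number as a block, 1 regulator was called, MBNL3, where 2.48% of all genes were called. MBNL3 (ENSG00000076770.14, chromosome X, 132369317 to 132489968) is the muscleblind-like protein best known from proliferating muscle precursors. It had 34.4, 27.6 and 28.2 CPM in control replicates 1, 2 and 3 and 26.5, 15.9 and 14.8 CPM in the siDDX5 replicates. All siDDX5 libraries were below all control libraries, and siDDX5 replicate 1 lay near the control range. Without the block its log2 fold change, -0.65 (SE 0.22), had an edgeR adjusted p of 0.297, and with it the values were -0.69 (SE 0.13) and 0.0281. Its paralogs were not called in either fit, with log2 fold changes of -0.18 for MBNL1 and -0.10 for MBNL2.

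**Figure D2:**
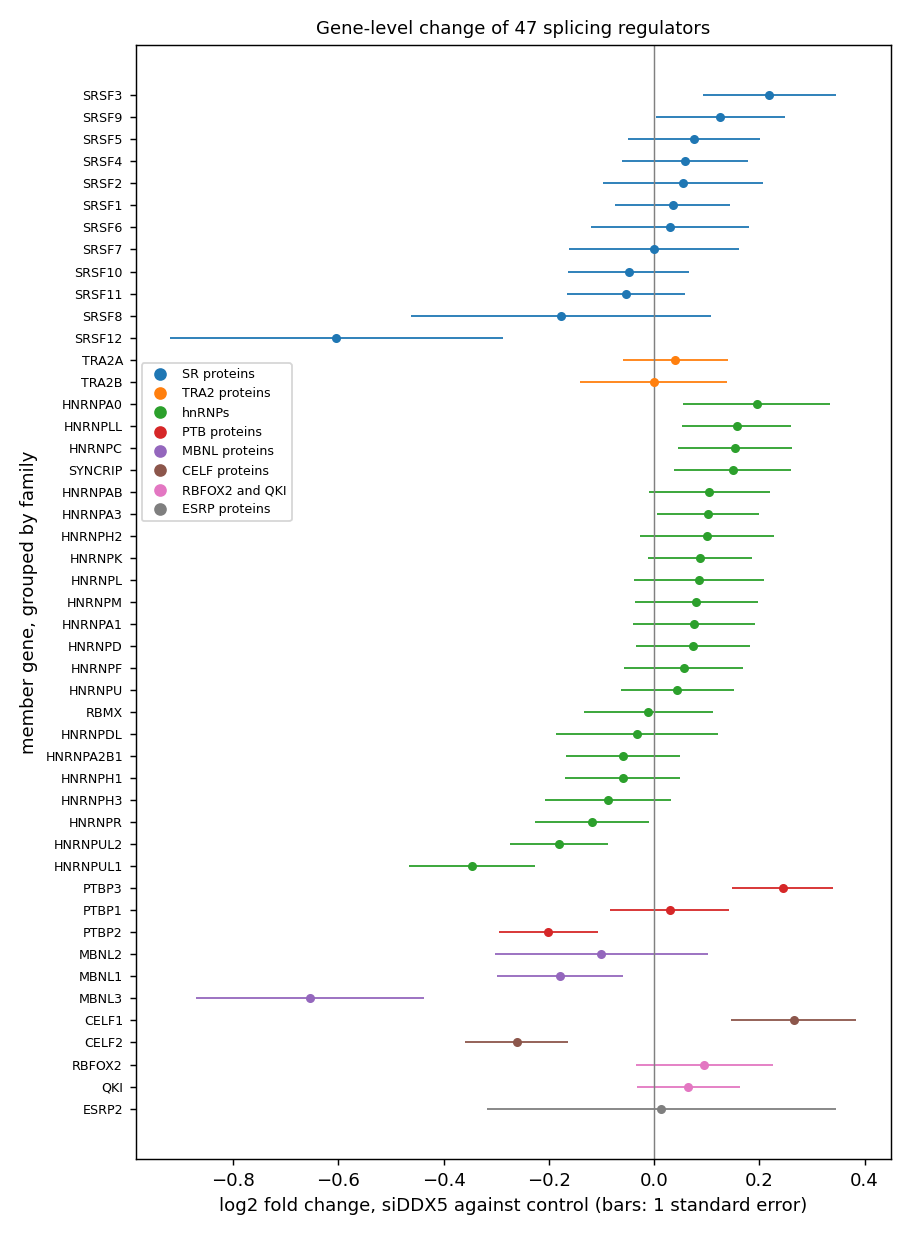
Log2 fold change of siDDX5 against control (x axis) for the 47 regulators tested, grouped and coloured by family. Bars are 1 standard error. Most values lie near 0, and MBNL3 and SRSF12 are the lowest.

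Among the 12 SR proteins, log2 fold changes ran from -0.60 (SRSF12, at 1.09 to 3.02 CPM) to 0.22, with 7 above 0. SRSF3, which promotes exon inclusion and mRNA export, was the highest. Control libraries had 355, 369 and 331 CPM and siDDX5 libraries 371, 482 and 375 CPM (SE 0.13, edgeR adjusted p 0.546), and the groups did not overlap. TRA2A and TRA2B had log2 fold changes of 0.04 and -0.00.

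Among the 22 hnRNPs, 14 had a log2 fold change above 0, and the family's median was 0.07. HNRNPUL1, an hnRNP U-like protein also linked to DNA repair, was the lowest. Its level was 392, 356 and 309 CPM in control and 291, 288 and 252 CPM in siDDX5 cells (log2 fold change -0.35, SE 0.12, edgeR adjusted p 0.316). HNRNPUL2 had the value -0.18 (SE 0.09, edgeR adjusted p 0.507). The groups of both genes were apart, with siDDX5 lower. HNRNPA0 (0.20) and HNRNPLL (0.16), a regulator of CD45 splicing in lymphocytes, had the highest values of the family.

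The CELF paralogs differed in sign. CELF1 had 177, 234 and 213 CPM in control and 244, 251 and 255 CPM in siDDX5 cells (log2 fold change 0.27, SE 0.12, edgeR adjusted p 0.447). CELF2 had 201, 217 and 208 CPM against 185, 167 and 170 CPM (-0.26, SE 0.10, edgeR adjusted p 0.358). The PTB proteins, repressors of neuronal and muscle exons, also had both signs. PTBP3 had 342, 358 and 358 CPM against 435, 401 and 416 CPM (0.24, SE 0.10, edgeR adjusted p 0.383). PTBP2 had 76.3, 78.1 and 77.6 CPM against 69.7, 66.0 and 66.2 CPM (-0.20, SE 0.09, edgeR adjusted p 0.463). In these 4 genes the groups did not overlap, and none was called in either fit. PTBP1 (0.03), RBFOX2 (0.09) and QKI (0.06) had overlapping groups.

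Further lists of the splicing machinery gave 0 calls by edgeR without or with the block, and 1 by DESeq2, TNPO1. All 11 kinases and import factors of SR proteins were tested, with a median log2 fold change of 0.04 and 3 at an unadjusted p under 0.05 (3 with the block). TNPO1, an import receptor, had the highest value of that list, 0.44 (edgeR adjusted p 0.229, DESeq2 adjusted p 0.0326), and SRPK3, a muscle SR protein kinase, the lowest, -0.41 (0.296). Of the core spliceosome list, all 46 genes were tested, with a median of 0.07 and 2 at an unadjusted p under 0.05 (9 with the block). Of 53 other splicing regulators 46 were tested, with a median of -0.01 and 2 at an unadjusted p under 0.05 (5 with the block). With no share of all genes at that unadjusted threshold beside them, these counts are a description.

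The share of RNA on each class of transcript was examined next. Summed over the regulators, NMD transcripts held 8.22%, 7.91% and 8.18% of the estimated counts in control replicates 1, 2 and 3 and 7.66%, 7.45% and 7.48% in the siDDX5 replicates. Retained-intron transcripts held 9.44%, 11.9% and 10.5% against 9.79%, 8.41% and 9.84%. The NMD share was thus lower in every siDDX5 library, by 0.57 percentage points on average, while the retained-intron shares overlapped. Over all genes the NMD share was 2.75% in control and 2.64% in siDDX5 cells. Taken gene by gene, the median NMD difference was -0.12 percentage points in the regulators tested and -0.15 over all genes. Control replicate 2 had the highest retained-intron share, also over all genes (5.94%, against 4.57% to 5.15% in the others), and in SRSF9 and HNRNPH1 below. Without it the control shares of the regulators were 9.44% and 10.5%, within or near the siDDX5 range of 8.41% to 9.84%. Leaving out each library in turn moved the regulators' mean difference, -1.24 percentage points, by less than 1 SD. Why this library was high was not tested.

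No class of any regulator was called. Of 108 gene classes tested with edgeR, 0 were called, against 0.137% over all genes, and 7 had an unadjusted p under 0.05. With the block 0 were called, against 0.182%, with 13 at an unadjusted p under 0.05. A limma test of log2 ratios, added after the data had been seen, also called 0, against 0.0501%, with 6 at an unadjusted p under 0.05. On simulated libraries the edgeR class test found most planted changes of 4-fold and few of 2-fold, so these counts do not show that shares were equal.

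The NMD share was lower without overlap in 4 of 26 regulators (9.15% of all genes) and higher in 0 (5.37%). Its mean was lower in siDDX5 cells in 16 of the 26, and in 56.4% of all genes. Of the 4 without overlap, SRSF1, SRSF6 and SRSF7 are SR proteins known to limit their own RNA. SRSF1 had NMD shares of 15.0%, 14.1% and 13.5% in the control and 12.6%, 9.13% and 10.6% in the siDDX5 libraries (unadjusted p 0.0268). SRSF6 had 26.3%, 27.6% and 26.0% against 21.6%, 17.6% and 22.0% (unadjusted p 0.0345). Its NMD share is that of ENST00000483871.6, which holds the poison exon printed above.

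SRSF7 had NMD shares of 34.3%, 38.4% and 38.6% against 30.6%, 27.5% and 32.9% (edgeR class test, unadjusted p 0.116). Most of it lay on ENST00000443213.5, which went from 27.1% ± 1.41 to 19.5% ± 2.00 of the gene's counts (SD, n = 3 each). HNRNPA2B1 had 10.9%, 11.4% and 11.7% against 10.1%, 10.4% and 9.67% (edgeR class test, unadjusted p 0.337). The other regulators with many NMD counts, such as HNRNPA1 (25.0% to 27.9%) and TRA2B (20.7% to 29.1%), had overlapping groups.

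The retained-intron share was lower without overlap in 4 of 26 regulators (10.9% of all genes) and higher in 1 (2.86%). Its mean was lower in siDDX5 cells in 23 of the 26, and in 67.1% of all genes. SRSF9 had 17.6%, 25.2% and 19.3% in the control and 16.6%, 14.03% and 15.6% in the siDDX5 libraries (edgeR class test, unadjusted p 0.0784). HNRNPC had 12.3%, 12.2% and 11.6% against 11.5%, 5.16% and 9.74% (edgeR class test, unadjusted p 0.0306). Its siDDX5 replicate 2 was far below the others. HNRNPH1 had 30.5%, 41.0% and 32.1% against 29.9%, 28.1% and 28.6% (edgeR class test, unadjusted p 0.435). The fourth, SRSF1, was under 1% in every library (edgeR class test, unadjusted p 0.0906).

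SRSF2 went the other way. Its retained-intron share was 14.6%, 19.4% and 21.9% in the control and 23.0%, 23.7% and 27.8% in the siDDX5 libraries (unadjusted p 0.0228). Most of these counts were on ENST00000582449.5, which went from 14.1% to 20.5% of the counts of SRSF2 on average. In TPM its retained-intron shares overlapped (27.6%, 35.7% and 39.6% against 38.2%, 39.7% and 46.5%), as did those of SRSF9 and the NMD shares of HNRNPA2B1. The other 5 gene classes plotted did not overlap in TPM either. The coding share of the regulators was higher without overlap in 8 of 36 (11.1% of all genes) and lower in 1 (3.85%).

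**Figure D3:**
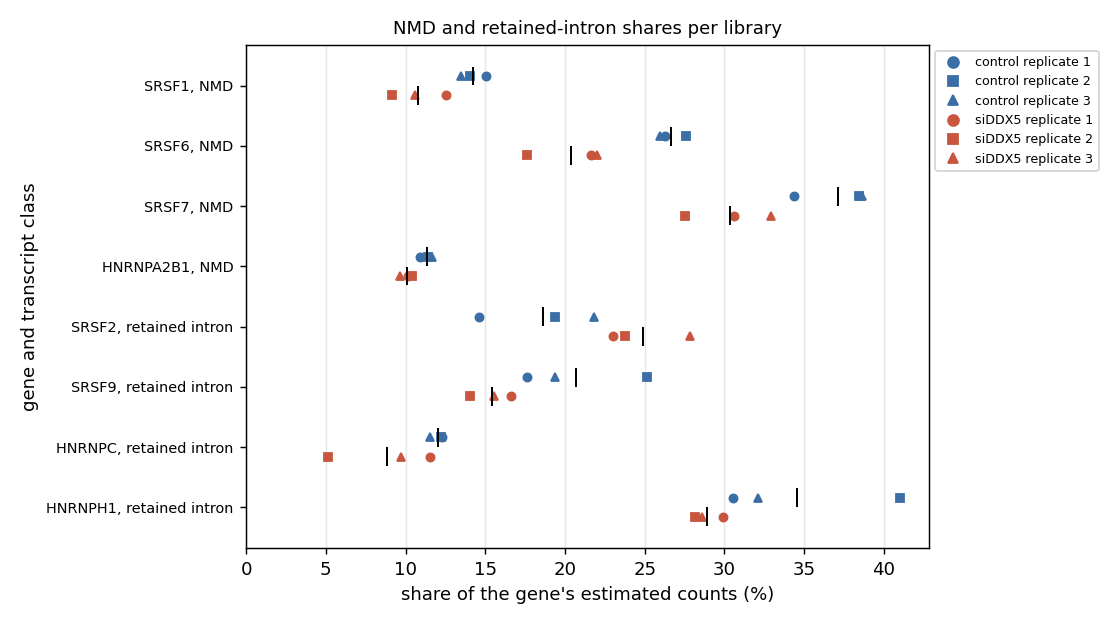
Share of a gene's estimated counts on NMD or retained-intron transcripts (x axis, %) in each library for 8 gene classes. Points are libraries and black lines are group means. In these counts the groups do not overlap in any of the 8, and SRSF2 is the one with higher siDDX5 values. In TPM, not drawn, they overlap for SRSF2, SRSF9 and HNRNPA2B1.

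Inclusion of an exon was taken as the share of counts on transcripts that include it, among transcripts that include or skip it, and was described with no test. Groups did not overlap in 20 exons, 4 higher and 16 lower. These were 19.2% of the exons examined in 35 regulators, beside 14.8% of all exons. The poison exon of SRSF6 was included at 26.6% ± 0.86 in control and 20.4% ± 2.42 in siDDX5 cells (SD, n = 3 each), which repeats its NMD share. The poison exons of SRSF7 (10.2% to 16.7%), SRSF3 (1.22% to 2.09%) and TRA2B (51.7% to 61.1%) had overlapping groups. An exon of TRA2A that overlapped as well (15.9% to 21.8%) lies on transcripts annotated as coding. A transcript counted as including an exon only if it had exactly the same exon ends. Transcripts that overlapped it otherwise, or did not span it, were left out. The ratio therefore cannot show whether the lower NMD share of SRSF7 lay on RNA with its poison exon.

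The 36-base exon of MBNL1 was included at 64.5%, 65.5% and 62.5% in the control and 58.3%, 49.2% and 56.9% in the siDDX5 libraries, all below the control libraries. The same exon overlapped between groups in MBNL2 (10.5% to 16.6%). In MBNL3 it depended on the unit. In counts the groups overlapped (13.9% to 27.9%, a mean difference of -4.24 percentage points), while in TPM inclusion was 49.3%, 44.7% and 47.01% against 42.9%, 21.9% and 33.3%, lower in all siDDX5 libraries. The 54-base exon of MBNL1, which helps to keep the protein in the nucleus, had 40.4%, 36.6% and 43.4% against 41.7%, 52.3% and 45.7%. These groups overlapped. An alternative coding exon of QKI (chromosome 6, 163478780 to 163478896) was included at 94.1%, 94.0% and 93.6% against 96.8%, 97.5% and 96.7%. An exon of SRSF2 (chromosome 17, 76735772 to 76735875), on its NMD and retained-intron transcripts, had 17.3%, 25.1% and 28.7% against 29.2%, 29.4% and 35.7%. Control replicate 3 and siDDX5 replicate 1 lay close together. NMD transcripts held only 1.65% and 1.62% of the gene's counts in the 2 groups, so this mostly repeats its retained-intron share.

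**Figure D4:**
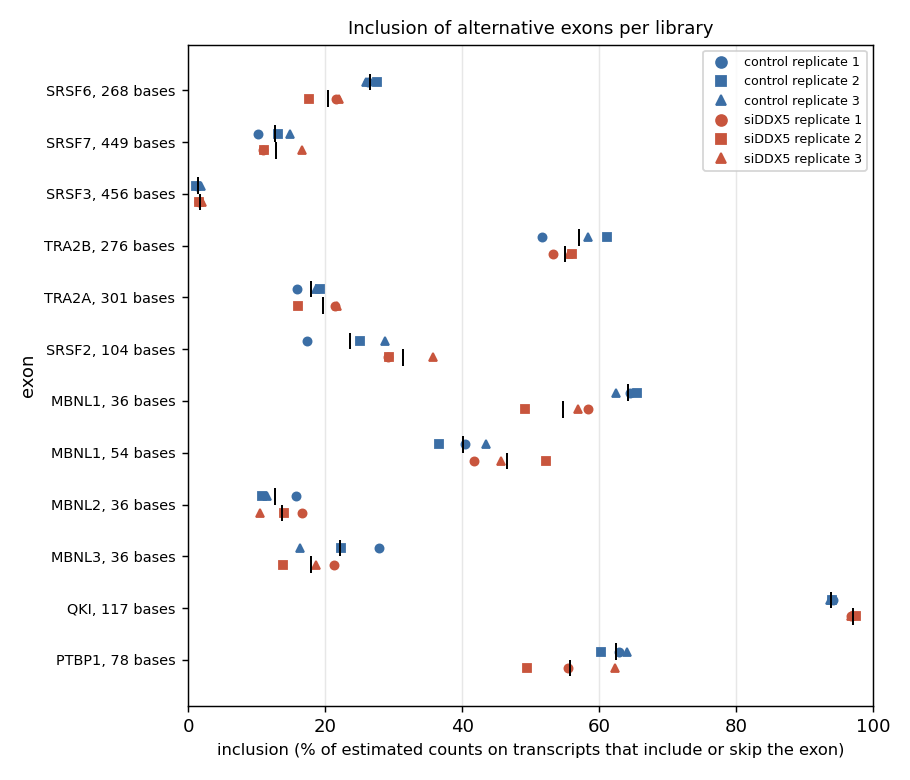
Inclusion of 12 exons (x axis, %) in each library, labelled by gene and length. Points are libraries and black lines are group means. Groups are apart for the exons of SRSF6, SRSF2, MBNL1 (36 bases) and QKI.

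Single transcripts gave few calls. Of 668 transcripts of the regulators, 436 were tested, and edgeR called 0 (0% of all transcripts) with 44 at an unadjusted p under 0.05. With the block it also called 0 (0%), with 52 at an unadjusted p under 0.05. DESeq2 called 14 of the 287 to which it gave an adjusted p (4.88%), against 3% of all such transcripts. The 3 lower ones belonged to QKI, CELF2 and HNRNPUL1. The 11 higher ones comprised 2 of HNRNPU and 1 each of SRSF2, SRSF5, SRSF10, HNRNPC, HNRNPH1, HNRNPK, PTBP3, CELF1 and CELF2.

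The use of transcripts within a gene was tested in 41 regulators. By edgeR's diffSpliceDGE 2 were called, SRSF9 and CELF2, against 1.58% of all genes, and the same 2 with the block, against 1.2%. This test cannot be taken at its threshold: on simulated libraries in which no transcript had been changed it still called genes. The limma test of log2 ratios called 0 genes on those simulated libraries. On the real libraries it called 0 regulators, against 0.898% of all genes, with 4 at an unadjusted p under 0.05. Its adjusted p was 0.157 for SRSF9 and 0.398 for CELF2. It too missed most planted changes of a transcript, so the values of both genes are given as a description.

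In CELF2, a regulator of muscle and neuronal exons, ENST00000631460.1 had 1484, 1418 and 1556 estimated counts in the control and 545, 194 and 390 in the siDDX5 libraries. Its share of the gene went from 30.1% ± 1.12 to 11.2% ± 4.34 (SD, n = 3 each), and the groups were far apart. The adjusted p in diffSpliceDGE was 0.00343 and was 0.491 without siDDX5 replicate 2 and 0.589 with no filter beyond 1 estimated count. The most abundant transcript of CELF2, ENST00000542579.5, had a log2 fold change of 0.00 at the transcript level.

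In SRSF9 the retained-intron transcript ENST00000548326.1 had 90.1, 56.3 and 89.8 estimated counts in the control and 4.0, 0.0 and 1.3 in the siDDX5 libraries. It held 3.45% ± 0.43 of the gene's counts in control cells (SD, n = 3), and the coding transcript ENST00000229390.8 held 79.0%. The call was lost when transcripts under a mean count of 50 were left out, a filter that removed this transcript. HNRNPH1 was not called for transcript usage (diffSpliceDGE adjusted p 0.144, and 0.0566 with the block). Its transcript ENST00000329433.10 had 174, 409 and 254 counts against 484, 820 and 657, or 1.33% against 4.13% of the gene on average. HNRNPH1, HNRNPL, HNRNPR and RBFOX2 also have counts on copies outside the primary assembly, so their transcript shares are uncertain. The copies held 50% of the counts of HNRNPL and HNRNPR in every library, and 4.21% to 5.27% in RBFOX2. In HNRNPH1 they held 6.24%, 4.13% and 4.74% in the control and 4.25%, 0.393% and 1.65% in the siDDX5 libraries. These groups overlapped (edgeR class test, unadjusted p 0.00682, adjusted p 0.757).

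**Figure D5:**
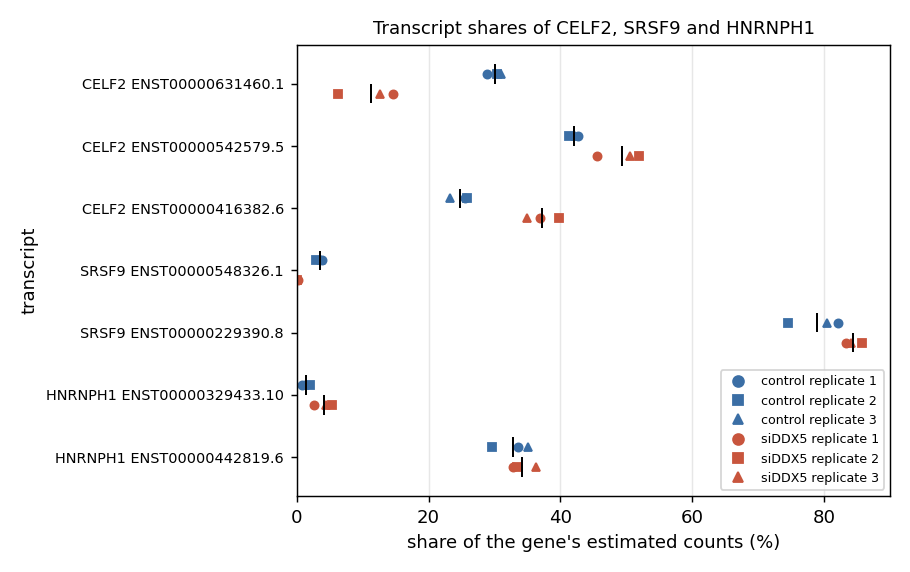
Share of a gene's estimated counts (x axis, %) on 7 transcripts of CELF2, SRSF9 and HNRNPH1 in each library. Points are libraries and black lines are group means. ENST00000631460.1 of CELF2 is lower in all siDDX5 libraries, and ENST00000548326.1 of SRSF9 is near 0 there.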

How the data were processed

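The 6 mRNA libraries of Rh30 cells were grouped by title (3 control, 3 siDDX5). For each transcript the authors deposited, per the file headers, estimated counts and TPM values. The submitters' processing notes name bcl2fastq 2.20, FastQC 0.11.8, cutadapt 1.11 and kallisto 0.46.0. The estimated counts were deposited without normalization, with shared reads divided among transcripts, and the deposited TPM values are scaled for length and depth.

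Transcripts were joined to GENCODE release 29 (GRCh38) by identifier, or by symbol for copies outside the primary assembly, and 99.26% to 99.32% of the counts were joined. Counts were summed per gene, or per gene and transcript class, rounded, filtered with filterByExpr, scaled by TMM and tested over the whole table with edgeR 4.0.16 (R 4.3.3), with Benjamini-Hochberg adjustment and a threshold of 0.05. CPM values carry the TMM factors. SD values are between replicates, and no error for dividing reads among transcripts was included.

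Same-numbered libraries deviated together (correlations over 15204 genes of 0.21, 0.27 and 0.56), but the titles do not say that they were made together. The main fits therefore had no block and did not model a pairing. A fit with the replicate number, from the titles, as a block was an alternative. Others were DESeq2 1.42.0, limma 3.58.1 and leaving out each library.

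The steps were tested on simulated data with dispersions estimated from these libraries. The gene test recovered most planted changes. The transcript usage test called genes where nothing had been changed, more than its threshold allows, and missed most changes of 2-fold and 4-fold. It was kept as the designed test, and limma on the log2 ratio of each transcript or class to the rest of its gene was added after this was seen.

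Members, lists and exons were chosen with earlier results of these data known. Genes were given in full if called in any test, among the 5 highest or lowest fold changes at 5 CPM or more, among the 6 smallest p for an NMD or retained-intron class, or among the 5 highest or lowest levels. HNRNPA1, named by the class rule, had retained-intron shares under 2%.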

Additional observations from a re-analysis of the deposited data

How the results depend on the processing

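The log2 fold change of DDX5 stayed below 0 in all alternatives. It was not called with counts from length-scaled TPM (-1.37) or by limma-trend with a pseudocount of 1 (-1.44) or 0.1 (-1.45), and ranged from -1.54 to -1.30 over the fits without one library. The number of regulators called at gene level, 0, was 1 with the replicate block and 0 in each fit without one library. The number of transcripts called, 0, was 14 with the DESeq2 Wald test. The number of regulators called for transcript usage, 2, was 4 with no filter beyond 1 estimated count, 1 with a mean of at least 50 counts, 0 with the limma test of log2 ratios, and 2 to 4 without one library. The number of gene classes called, 0, was 0 to 1 without one library. The NMD share over the regulators differed by -0.57 percentage points in counts and -0.39 in TPM, where the groups overlapped. The replicate block changed no other call than that of MBNL3. No direction was reversed among the gene-level values of the regulators with the highest and lowest fold changes. Where a result changed, the cause was not tested. Of 34 alternative exons compared in both units, the difference moved by more than 1 SD in TPM for 12, for example from -4.24 to -14.30 in MBNL3 (36 bases) and from -6.68 to 0.96 in PTBP1 (78 bases). The usage and class tests had little power for changes of 2-fold.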
